A study of Mus musculus with 35 samples.

Results

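The comparison of Matrigel with poly-L-ornithine after interleukin-1β (IL-1β) was made between 10 of the 35 libraries of the series, namely the 5 labelled Matrigel IL-1β and the 5 labelled Poly-L-Ornithine IL-1β, and the libraries were chosen by those labels and by no measured value. All 10 held primary enteric glia of wild-type mice on a BL6 background, taken from the small intestine of adult animals. Neurospheres had proliferated for 7 days, were differentiated on 1 of the coatings for 3 days per the labels (the study's methods give a longer time for the sequenced cultures), and were then exposed to 10 ng/ml IL-1β for 24 h in serum-free medium. The 2 groups therefore shared the cytokine and differed in the coating, with 5 biological replicates each. In reporter cultures the study counted a lower share of glia on poly-L-ornithine than on Matrigel. It did not exclude an effect of glial number and purity on its transcriptomes. The part of cell makeup in the differences below was not tested. The naive cultures on the same coatings, 5 libraries each, carried no cytokine, and 5 IL-1β libraries on laminin gave a further coating. The question was whether the ECM substrate alters the transcriptome of reactive enteric glia.

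Matrigel is a basement membrane extract from a mouse tumour, rich in laminin, collagen IV and entactin, that cells bind through integrins, whereas poly-L-ornithine is a synthetic polycation to which cells attach mainly by charge. Integrin binding is known to organise actin and microtubules and to feed the YAP and SRF transcription programs, and caveolae, the small plasma membrane pits built from caveolins and cavins, flatten under stretch. IL-1β is known to turn enteric glia into cytokine- and chemokine-producing cells through NF-κB.

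The deposited values are scaled by a size factor per library, so their sums do not measure sequencing depth. Deposited normalized counts summed to between 8530094 and 9033248 per Matrigel library and to between 8555980 and 8997924 per poly-L-ornithine library, between 13879 and 14420 genes were above 0, and the 10 most abundant genes took between 15.8% and 22.4% of a library. The spacing of the low values put each library at about 8.01 to 11.7 M reads on Matrigel and 8.18 to 9.71 M reads on poly-L-ornithine. Matrigel replicate 1, at 11.7 M, lay above every poly-L-ornithine library. Sox10, the neural crest and glial transcription factor, measured between 3749 and 9837 normalized counts on Matrigel and between 4384 and 8926 on poly-L-ornithine. Glial RNA was thus present in every library, but these values do not give the share of glia in a culture.

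After IL-1β, 28 genes differed between the coatings at an adjusted p under 0.05, 20 of them higher and 8 lower on Matrigel. Those higher on Matrigel included the peptide hormone gene Adm, the BMP-binding membrane protein gene Crim1, the caveolar coat genes Cavin1 and Cavin2, the sterol pathway gene Fdps, the tubulin genes Tuba1a and Tuba1b and the actin-binding genes Cnn2 and Tmsb10. Those lower included the collagen-degrading protease gene Ctsk, the polyamine oxidase gene Smox, the proteoglycan gene Cspg4 and the scaffold gene Iqgap1. Of the 20687 genes tested, 0.135% were called in either direction, 0.0967% higher and 0.0387% lower, and 1469 (7.1%) had an unadjusted p under 0.05. In 21 of the 28 the 5 libraries of one coating did not overlap the 5 of the other, as they did not in 207 of all genes tested (1.0%, 0.454% with Matrigel and 0.546% with poly-L-ornithine higher). Absolute log2 fold changes of 1 or more were seen in 16 of the called genes and smaller ones in 12. The genes with low counts showed the widest log2 fold changes in the plot of all genes.

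**Figure D1:**
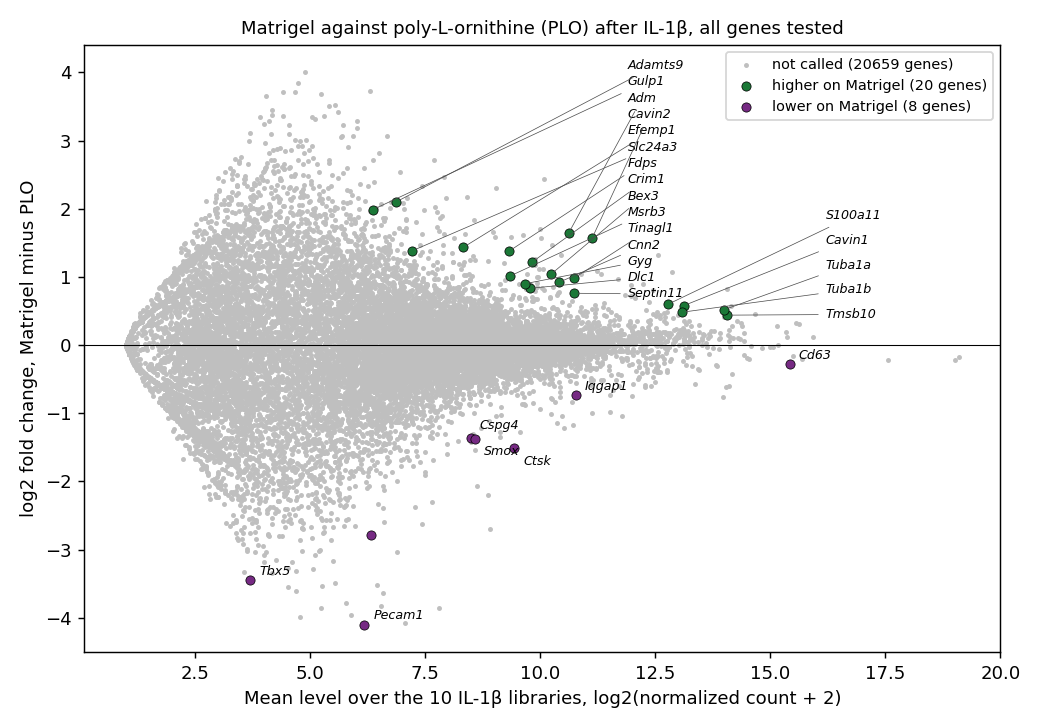
Mean level over the 10 IL-1β libraries (horizontal axis, log2 of the normalized count plus 2) against the log2 fold change of Matrigel minus poly-L-ornithine (vertical axis), with a point for each of the 20687 genes tested. The 20 genes called higher on Matrigel are green, the 8 called lower are purple, and the spread of the uncalled genes narrows toward high levels.

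The call set depended on single libraries. All 28 genes kept the sign of their difference when each of the 10 libraries was left out in turn, but the number of calls fell to 5 without poly-L-ornithine replicate 3 and to 12 without Matrigel replicate 1 or replicate 2, and rose to 45 without Matrigel replicate 4. Adm, Crim1, Cavin1, Tbx5 and Fdps stayed called in all 10 removals, and the remaining 23 lost their call without poly-L-ornithine replicate 3. Not all of these 5 held under other settings. When limma was run without trend and robust estimation, 22 of the 28 lost their call, among them Cavin1 (adjusted p = 0.212) and Fdps (0.12). Tbx5 lost its call when the 10 libraries were fitted alone (adjusted p = 0.296, limma).

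Adm, the gene of the vasodilator peptide adrenomedullin (chromosome 7, 110627657 to 110629820, GRCm38), had the smallest adjusted p of all genes. It measured 2193, 1867, 3190, 1621 and 3024 normalized counts in Matrigel replicates 1 to 5 and 949.3, 957.4, 490.1, 949.7 and 500.3 in poly-L-ornithine replicates 1 to 5. Every Matrigel library was higher than every poly-L-ornithine library. The log2 fold change was 1.65 ± 0.212 (SE, adjusted p = 7.23e-05 by limma with Benjamini-Hochberg adjustment). Adrenomedullin signals through the receptor Calcrl together with a RAMP coreceptor, and none of these 4 genes was called by limma. Calcrl averaged 558.6 normalized counts on Matrigel and 1008 on poly-L-ornithine with overlapping libraries (log2 fold change -0.70, 95% interval -1.36 to -0.05, adjusted p = 0.654), Ramp2 averaged 139.2 and 128.2, Ramp3 116.9 and 62.0, and Ramp1 6.08 and 21.1. None of the other 31 tested genes on the glycolysis and hypoxia list, to which Adm belongs, was called.

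Crim1 (chromosome 17, 78200233 to 78376592) encodes a membrane protein with cysteine-rich repeats that binds BMPs. Its normalized counts were 1314, 1343, 1194, 1049 and 1413 on Matrigel and 454.8, 461.9, 517.0, 773.5 and 540.6 on poly-L-ornithine. The groups were clearly separated, although poly-L-ornithine replicate 4 lay above the other 4 of its group. Crim1 was 2.33-fold higher on Matrigel (log2 fold change 1.22 ± 0.184, adjusted p = 0.00015, limma). Of the 33 tested genes of BMP signaling and Id factors, Crim1 was the only one called by limma without a block. The BMP target Id1 averaged 450.2 and 196.8 on the respective coatings (log2 fold change 1.23, adjusted p = 0.197) and the ligand Bmp4 482.3 and 218.1 (1.05, adjusted p = 0.259), with overlapping libraries for both. With a block for the rank of the library serial number, whose meaning the labels do not give, limma called Id1 and Bmp4 (adjusted p = 0.00176 and 0.0168).

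Of 10 tested genes of caveolae and cavins, Cavin1 and Cavin2 were called, both higher on Matrigel. Cavin1, which encodes the protein that joins caveolin into a coat, measured 10936, 11901, 10402, 9863 and 10120.3 normalized counts on Matrigel and 7217, 6823, 6637, 8409.6 and 6621 on poly-L-ornithine. Its difference was 1.49-fold (log2 fold change 0.58 ± 0.0909, adjusted p = 0.000275, limma), with no overlap between the groups. The call of Cavin1 was lost when limma was run without trend and robust estimation (adjusted p = 0.212). Cavin2, whose protein shapes the caveolar membrane, measured 3541, 3371, 2403, 2814 and 3974 normalized counts on Matrigel and 1428, 1955, 481.7, 1879 and 547.3 on poly-L-ornithine. The poly-L-ornithine libraries of Cavin2 fell into 3 between 1428 and 1955 and 2, replicates 3 and 5, between 481.7 and 547.3, and all 5 were lower than the lowest Matrigel library. The log2 fold change of Cavin2 was 1.57 ± 0.307 (adjusted p = 0.0287, limma), and the call was lost without Matrigel replicate 1, 2 or 5 or poly-L-ornithine replicate 3 or 5 (adjusted p up to 0.102). It was also lost when the 10 libraries were fitted alone (adjusted p = 0.469).

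Among the 10 tested genes of caveolae and cavins, 2 were called higher and none lower, 8 had a log2 fold change above 0, and 5 had an unadjusted p under 0.05 in that direction, where 3.39% of all genes did. The median of the list was 0.46, against 0.00 over all genes. Ehd2, an ATPase of the caveolar neck, measured between 1176 and 1821 normalized counts on Matrigel and between 724.0 and 1128 on poly-L-ornithine without overlap (log2 fold change 0.70, adjusted p = 0.0822). The caveolin gene Cav1 averaged 267.0 and 137.7 with overlapping libraries (log2 fold change 0.75, adjusted p = 0.644).

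The cavins were 1 of 4 pathway lists with 2 called members in a single direction, the others being the tubulins, the YAP and SRF targets and the lysosomal proteins. The 250 bases before 1 annotated start of each of these 8 genes, from RefSeq on GRCm38.p6, are shown to set the members that moved together beside their promoters. Capitals mark CCAAT (bound by the factor NF-Y), the TEAD-binding core GGAATG, the CArG box (bound by SRF) and the core CACGTG of the element described for lysosomal genes, each searched on both strands, and none of the matches overlapped. The cavin promoters lie at chr11:100970618-100970867 on the minus strand (Cavin1, the first of 2 starts in the table) and at chr1:51288876-51289125 on the plus strand (Cavin2):
Cavin1: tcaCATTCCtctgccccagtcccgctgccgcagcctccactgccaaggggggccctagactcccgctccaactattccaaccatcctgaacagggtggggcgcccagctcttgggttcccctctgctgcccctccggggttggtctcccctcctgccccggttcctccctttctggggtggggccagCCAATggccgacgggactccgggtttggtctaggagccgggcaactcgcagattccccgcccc
Cavin2: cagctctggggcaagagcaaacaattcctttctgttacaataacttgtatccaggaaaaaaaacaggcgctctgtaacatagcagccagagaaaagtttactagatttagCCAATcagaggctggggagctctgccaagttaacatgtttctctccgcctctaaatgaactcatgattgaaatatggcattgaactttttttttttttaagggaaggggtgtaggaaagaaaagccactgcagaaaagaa
Each of the 2 promoters held a CCAAT match, with its first base 63 bases before the start in Cavin1 and 140 bases before it in Cavin2, and CCAAT was held by 33.8% of the 32851 promoter windows of this length. Cavin1 also held GGAATG, read on the strand opposite the gene, as did 12.6% of all windows. These matches describe letters, and binding was not measured.

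Tubulin genes, whose products build microtubules, gave the next pair. Tuba1a, the α-tubulin of developing neural cells, measured 21985, 16119, 22822, 19941 and 15813 normalized counts on Matrigel and 15289.5, 13084, 11730.2, 15037 and 11941 on poly-L-ornithine. The lowest Matrigel library was still above the highest poly-L-ornithine library (log2 fold change 0.52 ± 0.0951, adjusted p = 0.00655, limma), but the call was lost without poly-L-ornithine replicate 3 (adjusted p = 0.0584) and under quantile normalization (adjusted p = 0.325). Tuba1b measured between 7735 and 12049.5 on Matrigel and between 5939 and 8850.1 on poly-L-ornithine, with overlap (log2 fold change 0.48 ± 0.104, adjusted p = 0.025), and lost its call without Matrigel replicate 1, 2 or 3 or poly-L-ornithine replicate 3 or 5 (adjusted p up to 0.159). The α-tubulins are near-identical copies, and reads shared between them could have been split in counting. Of the 14 tubulins tested, 10 had a log2 fold change above 0, and the β-tubulin Tubb5 averaged 9974 against 7799.8 normalized counts (log2 fold change 0.35, adjusted p = 0.188). The 2 promoters lie close together on the minus strand, at chr15:98953502-98953751 and chr15:98934391-98934640:
Tuba1a: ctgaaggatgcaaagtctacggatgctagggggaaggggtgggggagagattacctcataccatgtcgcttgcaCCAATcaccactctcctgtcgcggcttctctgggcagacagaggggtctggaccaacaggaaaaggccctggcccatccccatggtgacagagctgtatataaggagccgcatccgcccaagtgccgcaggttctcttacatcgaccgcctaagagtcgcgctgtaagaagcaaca
Tuba1b: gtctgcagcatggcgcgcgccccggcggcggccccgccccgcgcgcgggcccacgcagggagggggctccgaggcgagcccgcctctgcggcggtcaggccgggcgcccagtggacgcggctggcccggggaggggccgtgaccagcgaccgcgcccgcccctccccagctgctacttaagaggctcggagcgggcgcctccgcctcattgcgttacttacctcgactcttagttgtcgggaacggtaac
Tuba1a held 1 CCAAT match, starting 176 bases before the gene, and Tuba1b held none of the 4 motifs in this window.

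YAP and SRF target genes were the list with the most members past an unadjusted p of 0.05 after sterol synthesis, with 11 of 28, all higher on Matrigel, and 2 of them were called, Crim1 and Cnn2. Cnn2, the actin-binding calponin of non-muscle cells, measured 1795, 1946, 2123, 1297 and 1729 normalized counts on Matrigel and 780.1, 1267, 711.0, 1074 and 897.8 on poly-L-ornithine. The groups came close but did not overlap, since the highest poly-L-ornithine library was just under the lowest Matrigel library (log2 fold change 0.92 ± 0.178, adjusted p = 0.00908, limma). Without poly-L-ornithine replicate 3 the adjusted p was 0.0729, and limma-voom gave 0.0564. Tpm4, a tropomyosin that lines actin filaments, averaged 8127 against 5782 (log2 fold change 0.49, adjusted p = 0.0822). The list's median log2 fold change was 0.36, with 21 of 28 above 0, where 44.4% of all genes were above 0. The promoters of its called genes lie at chr17:78199998-78200247 and chr10:79988350-79988599, both on the plus strand:
Crim1: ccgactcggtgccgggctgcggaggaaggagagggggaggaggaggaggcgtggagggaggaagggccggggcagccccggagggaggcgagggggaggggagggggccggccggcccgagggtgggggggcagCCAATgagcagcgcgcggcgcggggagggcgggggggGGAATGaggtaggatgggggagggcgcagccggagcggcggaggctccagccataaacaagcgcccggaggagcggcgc
Cnn2: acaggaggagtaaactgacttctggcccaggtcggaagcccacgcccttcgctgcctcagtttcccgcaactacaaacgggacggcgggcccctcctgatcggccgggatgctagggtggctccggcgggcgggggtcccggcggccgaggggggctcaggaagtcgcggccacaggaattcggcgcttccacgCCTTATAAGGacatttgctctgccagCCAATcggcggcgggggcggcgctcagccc
Cnn2 carried a CArG box that began 56 bases before the start and a CCAAT match at 30 bases, and a CArG box was present in 1.47% of all windows. Crim1 carried CCAAT at 116 bases and GGAATG at 79 bases before the start.

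**Figure D2:**
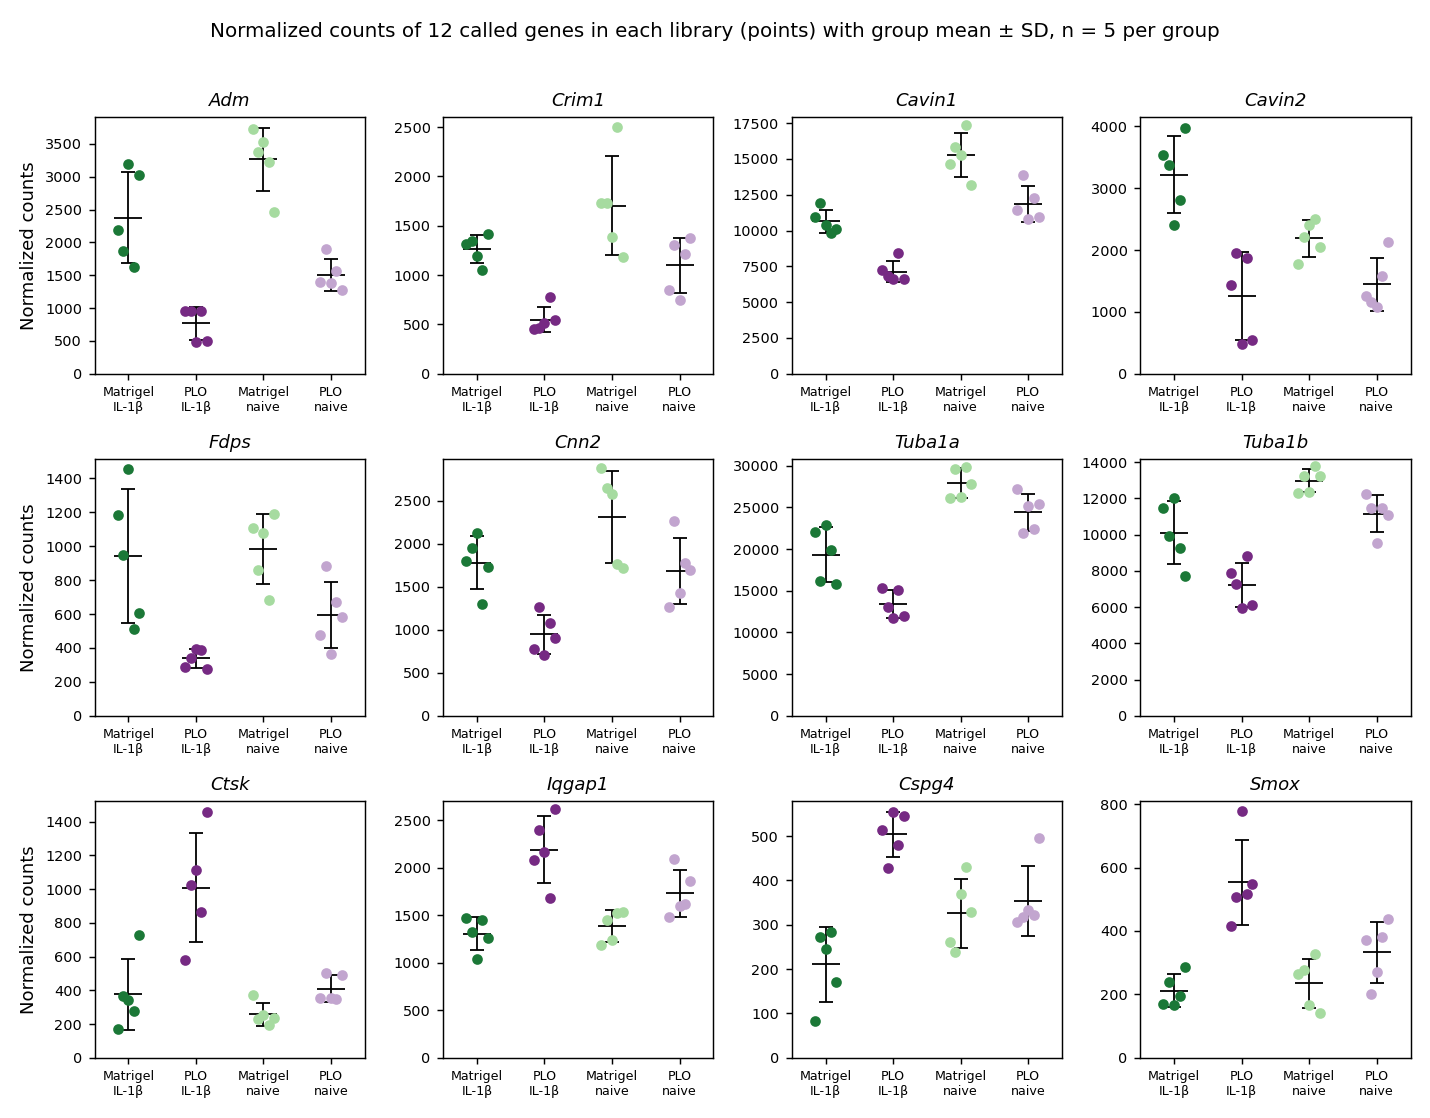
Normalized counts (vertical axes, starting at 0) of 12 called genes in each library, by coating and treatment, with 5 points per group and the group mean ± SD. Adm, Crim1, Cavin1, Cavin2, Fdps, Cnn2 and Tuba1a show no overlap between the 2 IL-1β groups, with Matrigel higher, and Iqgap1, Cspg4 and Smox show none with Matrigel lower, whereas Tuba1b and Ctsk overlap. PLO is poly-L-ornithine.

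Tmsb10, S100a11, Dlc1 and Septin11 were also called higher on Matrigel. Tmsb10, a thymosin that holds actin monomers, averaged 19601 ± 1481 normalized counts on Matrigel and 14534 ± 2047 on poly-L-ornithine (SD, n = 5 each, log2 fold change 0.44, adjusted p = 0.0125, limma). The calcium-binding gene S100a11 averaged 8347 ± 756 and 5615 ± 1175 (0.60, adjusted p = 0.0125), and Dlc1, a GTPase-activating protein, 1126 ± 128 and 631.1 ± 74.7 (0.83, adjusted p = 0.0125). None of these 3 genes overlapped between the groups. Septin11, a filament-forming GTPase, averaged 2142 ± 434 and 1283 ± 349 with overlapping libraries (0.76, adjusted p = 0.025) and was the only one of 11 tested septins called. S100a11 and Dlc1 lost their call without Matrigel replicate 2 or poly-L-ornithine replicate 3, Tmsb10 without either of those or Matrigel replicate 1, and Septin11 without Matrigel replicate 1, 2 or 3 or poly-L-ornithine replicate 1 or 3 (adjusted p up to 0.173).

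The other 8 called genes higher on Matrigel had varied known roles. Adamts9, a protease that cleaves proteoglycans, measured between 158.7 and 220.4 normalized counts on Matrigel and between 23.21 and 85.85 on poly-L-ornithine (a log2 difference of 2.10 ± 0.446, adjusted p = 0.025, limma). Efemp1, which encodes the matrix protein fibulin-3, averaged 460.2 and 179.0 (1.43, adjusted p = 0.0274), and Slc24a3, a potassium-dependent sodium/calcium exchanger, 214.1 and 81.52 (1.39, adjusted p = 0.0464). The groups of these 3 genes did not overlap. Gulp1, an adaptor for engulfment, averaged 127.9 and 32.25 (1.98, adjusted p = 0.025), and Gyg, the primer protein of glycogen, 1055 and 564.2 (0.90, adjusted p = 0.0489), again without overlap. Tinagl1, a matrix glycoprotein, Msrb3, a methionine sulfoxide reductase, and Bex3 had log2 fold changes of 0.98, 1.01 and 1.04 with overlapping libraries (adjusted p = 0.025, 0.0287 and 0.0464). All 8 lost their call without Matrigel replicate 2 or poly-L-ornithine replicate 3. Between 4 and 9 of the 10 removals ended the call of each, and every library was among these for at least 1 of the 8 (adjusted p up to 0.176). Adamts9, Gulp1 and Slc24a3 were also not called when the 10 libraries were fitted alone (adjusted p = 0.0507, 0.293 and 0.224).

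Of the cholesterol and fatty acid synthesis genes, 1 of 33 tested was called by limma, Fdps, which was higher on Matrigel, and none by limma-voom. In the list 31 had a log2 fold change above 0, where 44.4% of all genes did, and 18 were higher on Matrigel at an unadjusted p under 0.05, where 3.39% of all genes were, with none lower. The median log2 fold change of the list was 0.77, against 0.00 over all genes. The mean log2 level of the list, centred on the 10 libraries, was 0.39, 0.60, 1.09, -0.19 and 0.10 in Matrigel replicates 1 to 5, and it lay between -0.49 and -0.25 on poly-L-ornithine.

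Fdps, the farnesyl diphosphate synthase that feeds sterol and isoprenoid synthesis (chromosome 3, 89093588 to 89101967, GRCm38), measured 1186, 949.5, 1455, 509.2 and 606.4 normalized counts on Matrigel and 290.4, 339.1, 396.6, 388.4 and 275.9 on poly-L-ornithine. Matrigel replicates 4 and 5 lay nearest to the poly-L-ornithine libraries and still above all of them. The log2 fold change was 1.38 ± 0.251 (adjusted p = 0.00596, limma), and limma-voom gave an adjusted p of 0.069. Srebf2, the transcription factor of the pathway, measured between 648.6 and 1222 on Matrigel and between 474.3 and 638.2 on poly-L-ornithine, without overlap (log2 fold change 0.70, adjusted p = 0.204). The fatty acid desaturase Fads2 (0.91, adjusted p = 0.0822), the sterol enzymes Cyp51 (1.58, adjusted p = 0.204) and Sqle (0.93, adjusted p = 0.277) and the synthase Hmgcs1 (1.18, adjusted p = 0.277) had positive log2 fold changes with overlapping libraries. These 5 uncalled genes were named after their values were seen.

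Both called genes of the lysosomal list were lower on Matrigel. Of 28 tested genes of cathepsins and lysosomal proteins, 3 had a log2 fold change above 0, 10 had an unadjusted p under 0.05, all lower on Matrigel, where 3.71% of all genes did, and 2 were called, Ctsk and Cd63. The median of the list was -0.28. Ctsk, the collagen-degrading cathepsin K, measured 171.3, 365.2, 341.6, 276.9 and 728.0 normalized counts on Matrigel and 581.8, 1023, 1116, 865.1 and 1457 on poly-L-ornithine. Matrigel replicate 5 lay above poly-L-ornithine replicate 1, so that the groups overlapped (log2 fold change -1.51 ± 0.301, adjusted p = 0.0125, limma), and the call was lost without Matrigel replicate 1 or poly-L-ornithine replicate 3 or 5 (adjusted p up to 0.0948). Cd63, a tetraspanin of late endosomes and among the most abundant genes, measured between 34579 and 42049.5 on Matrigel and between 44807 and 54775 on poly-L-ornithine without overlap (log2 fold change -0.28 ± 0.0644, adjusted p = 0.0486), and of the 10 removals only that of poly-L-ornithine replicate 2 kept the call (adjusted p up to 0.251). The cholesterol exporter of the lysosome Npc1 averaged 344.2 and 703.2 without overlap (-1.03, adjusted p = 0.0748) and the sphingolipid activator gene Psap 13063 and 20502 with overlap (-0.61, adjusted p = 0.0943). The promoters of Ctsk (chr3:95498960-95499209, plus strand) and Cd63 (chr10:128909095-128909344, plus strand) are given for the 2 genes that were lower:
Ctsk: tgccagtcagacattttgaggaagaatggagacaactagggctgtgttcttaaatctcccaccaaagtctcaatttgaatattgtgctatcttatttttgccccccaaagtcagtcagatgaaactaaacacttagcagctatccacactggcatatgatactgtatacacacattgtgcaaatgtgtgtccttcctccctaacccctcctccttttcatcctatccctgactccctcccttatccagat
Cd63: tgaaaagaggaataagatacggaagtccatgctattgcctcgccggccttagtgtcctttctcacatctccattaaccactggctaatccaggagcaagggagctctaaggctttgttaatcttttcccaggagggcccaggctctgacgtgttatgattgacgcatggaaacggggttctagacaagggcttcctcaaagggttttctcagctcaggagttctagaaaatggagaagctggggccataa
None of the 4 motifs occurred in these windows, and CACGTG was held by 6.02% of all windows. The Cd63 window precedes a start inside the annotated gene, which spans 128896231 to 128912822. The bases before the upstream end of that gene were not searched.

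**Figure D3:**
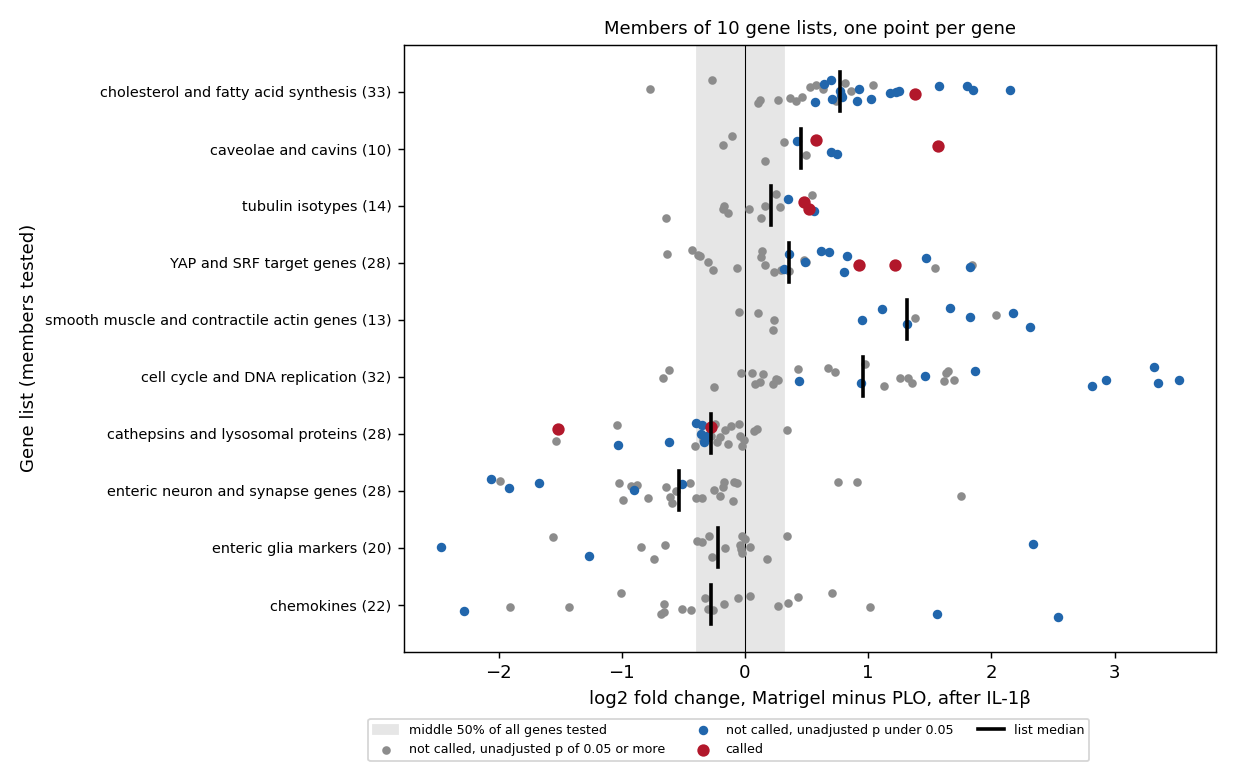
Log2 fold change of Matrigel minus poly-L-ornithine after IL-1β (horizontal axis) for each tested member of 10 gene lists, with a black bar at the list median and the interquartile range of all genes in grey. The sterol list has 31 of 33 members right of 0 and the lysosomal list has 3 of 28, with the called genes in red.

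The called genes that were lower on Matrigel spanned a wide range of levels. Iqgap1, a scaffold for actin and cadherins, measured 1469, 1319.7, 1043, 1447 and 1259 normalized counts on Matrigel and 2086, 2402, 2168, 1681 and 2623 on poly-L-ornithine (a log2 difference of -0.74 ± 0.151, adjusted p = 0.0147, limma). Smox, a spermine oxidase, averaged 211.5 ± 51.3 and 553.5 ± 135 (SD, n = 5 each, -1.38, adjusted p = 0.0211), and Cspg4, the NG2 proteoglycan, 210.9 ± 84.1 and 504.0 ± 51.1 (-1.37, adjusted p = 0.0257), the only call among 7 tested pericyte markers. The groups did not overlap in any of these 3 genes. Iqgap1 lost its call without Matrigel replicate 3 or poly-L-ornithine replicate 3 or 5, Smox without Matrigel replicate 1 or 3 or poly-L-ornithine replicate 3, and Cspg4 without Matrigel replicate 1 or 5 or poly-L-ornithine replicate 1, 3 or 5 (adjusted p up to 0.153).

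At lower levels, Tbx5, a T-box transcription factor, was listed at 0 in all 5 Matrigel libraries and at 37.02, 19.56, 29.7, 8.057 and 16.32 in the poly-L-ornithine libraries (adjusted p = 0.00319, limma), and it was not called when the 10 libraries were fitted alone (adjusted p = 0.296). No fold is given for Tbx5 because 1 group was at 0. Pecam1, an adhesion molecule of endothelial cells and leukocytes, measured 73.72, 0, 0, 17.04 and 0.9333 on Matrigel and 114.6, 68.47, 135.5, 137.0 and 158.4 on poly-L-ornithine. Matrigel replicate 1 overlapped with poly-L-ornithine replicate 2 for Pecam1 (log2 fold change -4.10 ± 0.943, adjusted p = 0.0464), and 7 of the 10 removals ended its call, those of Matrigel replicates 2, 3 and 5 and of poly-L-ornithine replicates 1, 3, 4 and 5. The other 11 tested endothelial markers were not called, and the summed level of that list was low in both groups, between 21.97 and 47.19 CPM (normalized counts scaled to the library total) on Matrigel and between 40.73 and 61.57 on poly-L-ornithine.

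The lists of the IL-1β response held no call. By limma, none of 22 tested chemokines, 21 cytokines and acute-phase products, 19 NF-κB subunits and inhibitors, 19 genes of the IL-1 receptor complex and 19 of the IL-6 family was called, and limma-voom called none of them either. At an unadjusted p under 0.05 the chemokines had 2 genes higher and 1 lower, the cytokines 3 lower, the NF-κB genes 1 higher, the receptor complex 1 lower and the IL-6 family 1 higher, where 3.39% of all genes were higher and 3.71% lower. The monocyte chemokine gene Ccl2 measured 6184, 8336, 11936, 9106 and 8163 normalized counts on Matrigel and 7983, 8806, 13691, 7849 and 11075 on poly-L-ornithine, with wide overlap (log2 fold change -0.17, 95% interval -0.58 to 0.24). Il6 measured 93.08, 90.04, 32.06, 23.43 and 38.27 on Matrigel and 43.19, 56.51, 366.6, 71.51 and 167.1 on poly-L-ornithine. Poly-L-ornithine replicates 3 and 5 held the highest values of Il6, and the interval of its log2 fold change, -3.00 to 0.88, allows a large difference in either direction. The IL-1 receptor gene Il1r1 averaged 306.5 and 174.0 (log2 fold change 0.93, 95% interval -0.02 to 1.88), and the gp130 receptor gene Il6st 2613 and 1849 with overlapping libraries (0.52, adjusted p = 0.178).

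Of 41 genes that the study names for its coatings, 3 were called by limma, namely Adm, Dlc1 and Septin11. The study named Adm and Dlc1 for a difference between naive cultures of this series. These 3 genes are no evidence from outside the series. Slco2a1, Ifitm1, Ifitm3, Tgfbi and Mmp17 were listed by the study as differing between coatings after IL-1β, at an FDR under 0.05. It reported the first 3 as higher on Matrigel and laminin and the other 2 as higher on poly-L-ornithine. Its DESeq2 analysis and its grouping of coatings differ from the limma contrast used here. Slco2a1, the prostaglandin transporter, measured 116.2, 91.05, 349.0, 110.8 and 210.0 normalized counts on Matrigel and 42.31, 13.04, 37.13, 64.46 and 35.53 on poly-L-ornithine, without overlap but above the threshold (log2 fold change 2.09 ± 0.523, adjusted p = 0.0822). It was the only one of 19 tested prostaglandin genes higher at an unadjusted p under 0.05, and 2 were lower. Rarres2, the chemerin precursor, measured between 364.4 and 1107 on Matrigel and between 132.8 and 326.1 on poly-L-ornithine (1.67, adjusted p = 0.18), and the sodium channel gene Scn7a between 105.7 and 645.4 and between 28.26 and 71.4 (2.34, adjusted p = 0.279), again without overlap. The interferon-induced genes Ifitm1 and Ifitm3 had overlapping libraries (2.44, adjusted p = 0.555, and 0.82, adjusted p = 0.606), as did Tgfbi (-1.35, adjusted p = 0.183) and Mmp17 (-1.31, adjusted p = 0.277). With the serial rank block, limma called each of them (adjusted p = 0.042, 0.0106, 0.00142 and 0.00233). None of the 39 interferon-stimulated genes tested was called by limma without that block or by limma-voom. Of these 39, 5 were higher at an unadjusted p under 0.05 (3.39% over all genes), none lower, and 30 had a log2 fold change above 0 (median 0.47).

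At an unadjusted p under 0.05, 3.39% of all genes were higher and 3.71% lower on Matrigel, which is the background for the matrix lists. None of 68 collagens, laminins and other matrix proteins was called by limma or limma-voom, with 1 higher and 5 lower at an unadjusted p under 0.05 and a median of 0.05. None of 30 integrins and laminin receptors was called by limma or limma-voom, with 6 higher and 3 lower at an unadjusted p under 0.05. The integrin subunit gene Itgb3 averaged 44.35 normalized counts on Matrigel and 143.6 on poly-L-ornithine with overlap (log2 fold change -2.38, adjusted p = 0.0618). Among 28 matrix metalloproteinases and inhibitors, 4 were higher and 5 lower at an unadjusted p under 0.05, Adamts9 was called, and the collagenase Mmp13 averaged 10.07 and 104.1 with overlap (-3.96, adjusted p = 0.0943 by limma), where limma-voom called it. Of 24 tested TGF-β genes neither limma nor limma-voom called any, 1 was higher and 3 were lower at an unadjusted p under 0.05, and the ligand Tgfb1 measured between 87.01 and 296.4 on Matrigel and between 313.8 and 628.4 on poly-L-ornithine without overlap (-1.40, adjusted p = 0.18).

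Of 32 cell cycle and DNA replication genes tested, none was called by limma, and limma-voom called Cdc45. In the list 28 had a log2 fold change above 0 (median 0.96), where 44.4% of all genes did, and 9 were higher and none lower at an unadjusted p under 0.05, where 3.39% of all genes were higher. The mitotic kinase gene Plk1 measured 111.7, 80.04, 115.4, 28.76 and 43.87 normalized counts on Matrigel and 18.51, 0, 0, 45.32 and 0 on poly-L-ornithine (a log2 difference of 3.52, adjusted p = 0.154). Matrigel replicates 4 and 5 fell within the poly-L-ornithine range for Plk1. The proliferation marker Mki67 averaged 50.93 and 10.96 (2.93, adjusted p = 0.277) and the survivin gene Birc5 137.0 and 39.6 (2.82, adjusted p = 0.18). The mean log2 level of the list, centred on the 10 libraries, was 0.50, 1.09, 1.06, 0.46 and -0.40 in Matrigel replicates 1 to 5 and -0.83, -0.75, -0.41, 0.11 and -0.82 in poly-L-ornithine replicates 1 to 5, so that Matrigel replicate 5 lay among the poly-L-ornithine libraries.

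Markers of other cells that such cultures can hold were examined by list. Smooth muscle and contractile actin genes had 12 of 13 tested members above 0 (median log2 fold change 1.32), 7 of them higher at an unadjusted p under 0.05, where 3.39% of all genes were, and none called by limma or limma-voom. Their summed level was 1857, 1499, 2221, 737.9 and 625.5 CPM in Matrigel replicates 1 to 5 and 425.3, 598.7, 348.8, 705.7 and 604.7 in poly-L-ornithine replicates 1 to 5. The groups overlapped in this sum, since Matrigel replicates 1 to 4 were above all poly-L-ornithine libraries and replicate 5 was not, and replicates 4 and 5, the lowest of their group, were also the 2 lowest Matrigel libraries for Fdps. Acta2 averaged 8813 against 3218 normalized counts (1.32, adjusted p = 0.413), Myl9 603.8 against 154.8 (1.83, adjusted p = 0.372) and Tagln 341.6 against 101.8 (1.67, adjusted p = 0.506). Myh11 measured 0, 16.01, 29.31, 24.5 and 1.867 in Matrigel replicates 1 to 5 and 0, 0, 1.856, 0 and 0 in poly-L-ornithine replicates 1 to 5 (2.17, adjusted p = 0.67, limma). The regulator Myocd was listed at 0 in all 10 libraries. In bulk samples, fewer cells of a type and less RNA per cell cannot be told apart. The part of these markers in the levels of the actin-binding, caveolar and sterol genes was not tested.

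Enteric neuron and synapse genes had 3 of 28 tested members above 0 (median -0.53) and 5 lower at an unadjusted p under 0.05, where 3.71% of all genes were, with none called by limma or limma-voom. Their sums overlapped and ranged from 917.9 to 1436 CPM on Matrigel (median 1062) and from 1232 to 1884 on poly-L-ornithine (median 1615). Stmn2, a microtubule regulator of growing neurites, averaged 413.6 and 715.0 normalized counts (log2 fold change -0.90, adjusted p = 0.322). The sums of the enteric glia markers overlapped as well, with values of 1284 to 3010.5 on Matrigel and 1562 to 2706 on poly-L-ornithine, and neither limma nor limma-voom called any of the 20 tested, of which 1 was higher and 2 were lower at an unadjusted p under 0.05. Sox10 had a log2 fold change of -0.16 (95% interval -0.82 to 0.49), S100b of -0.03 (-0.76 to 0.70) and Gfap of -0.35 (-1.30 to 0.61). Fibroblast markers summed to between 2024 and 10113 on Matrigel and between 2320.4 and 7095 on poly-L-ornithine, and macrophage markers to between 70.26 and 112.0 and between 41.64 and 208.5.

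**Figure D4:**
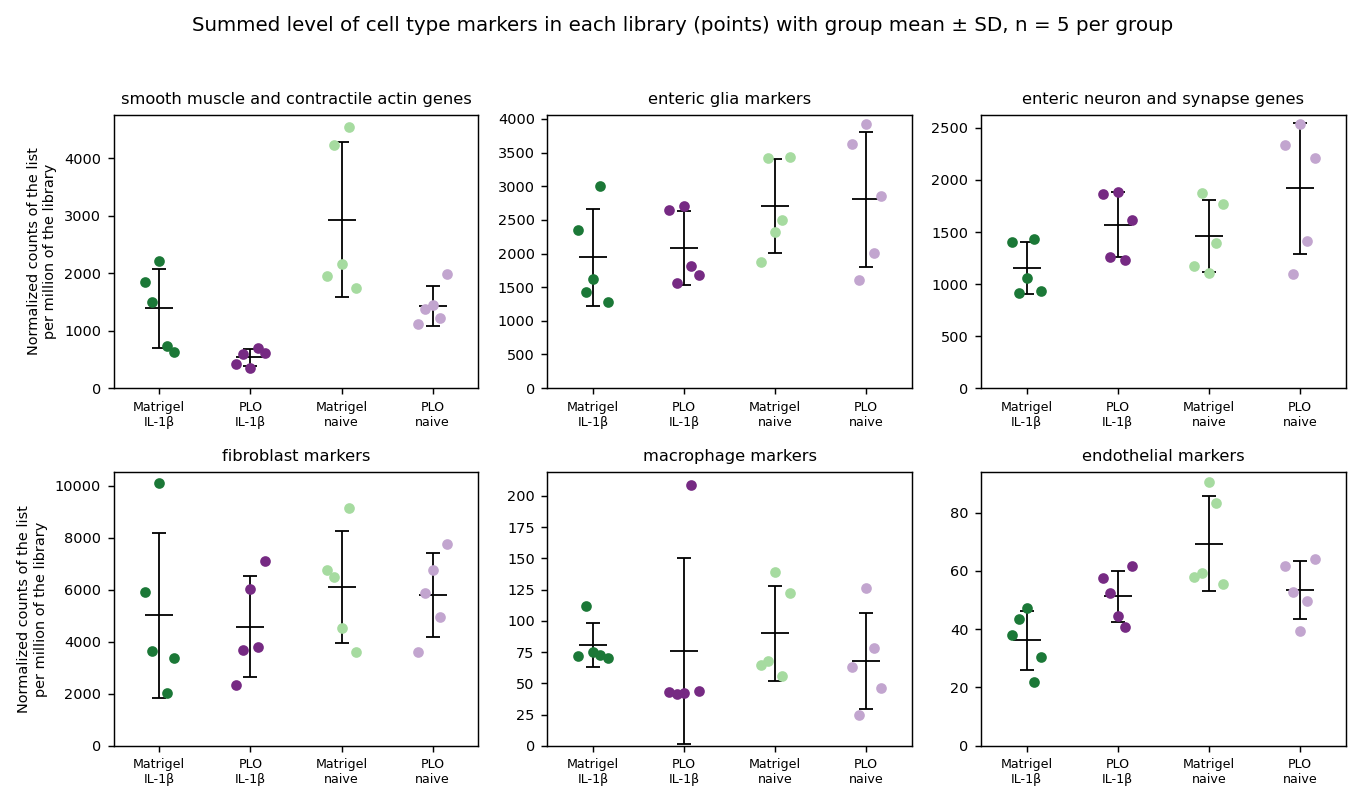
Summed level of 6 marker lists in CPM, normalized counts scaled to the library total (vertical axes, starting at 0) in each library, by coating and treatment, with the group mean ± SD of 5 libraries. After IL-1β the smooth muscle sum runs from 625.5 to 2221 on Matrigel and from 348.8 to 705.7 on poly-L-ornithine, and the glia sums overlap. PLO is poly-L-ornithine.

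The same contrast was made in the naive cultures, whose libraries entered none of the fold changes after IL-1β but shared in the estimate of spread behind the calls. There, 1 gene was called between Matrigel and poly-L-ornithine by limma (0.00483% of those tested), Ccl2, which was lower on naive Matrigel (log2 fold change -1.12, adjusted p = 0.024), and 1067 genes (5.16%) had an unadjusted p under 0.05. All 28 genes called after IL-1β had the same sign in naive cultures, as did 55.6% of all genes, and 18 of the 28 had an unadjusted naive p under 0.05, although none had an adjusted one. The study's own analysis of these naive libraries, at an FDR under 0.05, did list Adm and Dlc1 as differing between coatings. Adm averaged 3263 normalized counts on naive Matrigel and 1502 on naive poly-L-ornithine (log2 fold change 1.12, unadjusted p = 6.59e-06). Cavin1 averaged 15264 and 11863 (0.36, unadjusted p = 0.000186), and Tmsb10 25344 and 19642 (0.37, unadjusted p = 0.000102). These 3 genes were thus higher on Matrigel with and without the cytokine, by an unadjusted test in the naive cultures.

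All 28 differences were smaller in naive cultures than after IL-1β, with a median absolute log2 fold change of 0.425 against 1.13. The genes had been selected for a large difference after IL-1β, which by itself makes the other contrast look smaller. The interaction of coating with treatment was called for 0 genes by limma and for 0 by limma-voom, with 807 genes (3.9%) at an unadjusted p under 0.05. Among the 28, 12 had an unadjusted interaction p under 0.05, and their smallest adjusted p was 0.957. The interaction contains the IL-1β difference by which the 28 were selected, which raises this count. It therefore cannot be set against the 3.9% of all genes. Tbx5 had an unadjusted interaction p of 0.00137, but it was listed at 0 on Matrigel after IL-1β and was near 0 in naive cultures on both coatings. Its interaction thus rested on the low poly-L-ornithine IL-1β values for which it had been selected. Cspg4 averaged 325.4 and 354.5 in naive Matrigel and poly-L-ornithine cultures (unadjusted p = 0.00466). Beyond the called genes, Ccl2 (unadjusted p = 0.00192) and Slco2a1 (unadjusted p = 0.00228) had contrasts that differed between treatments only before adjustment.

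**Figure D5:**
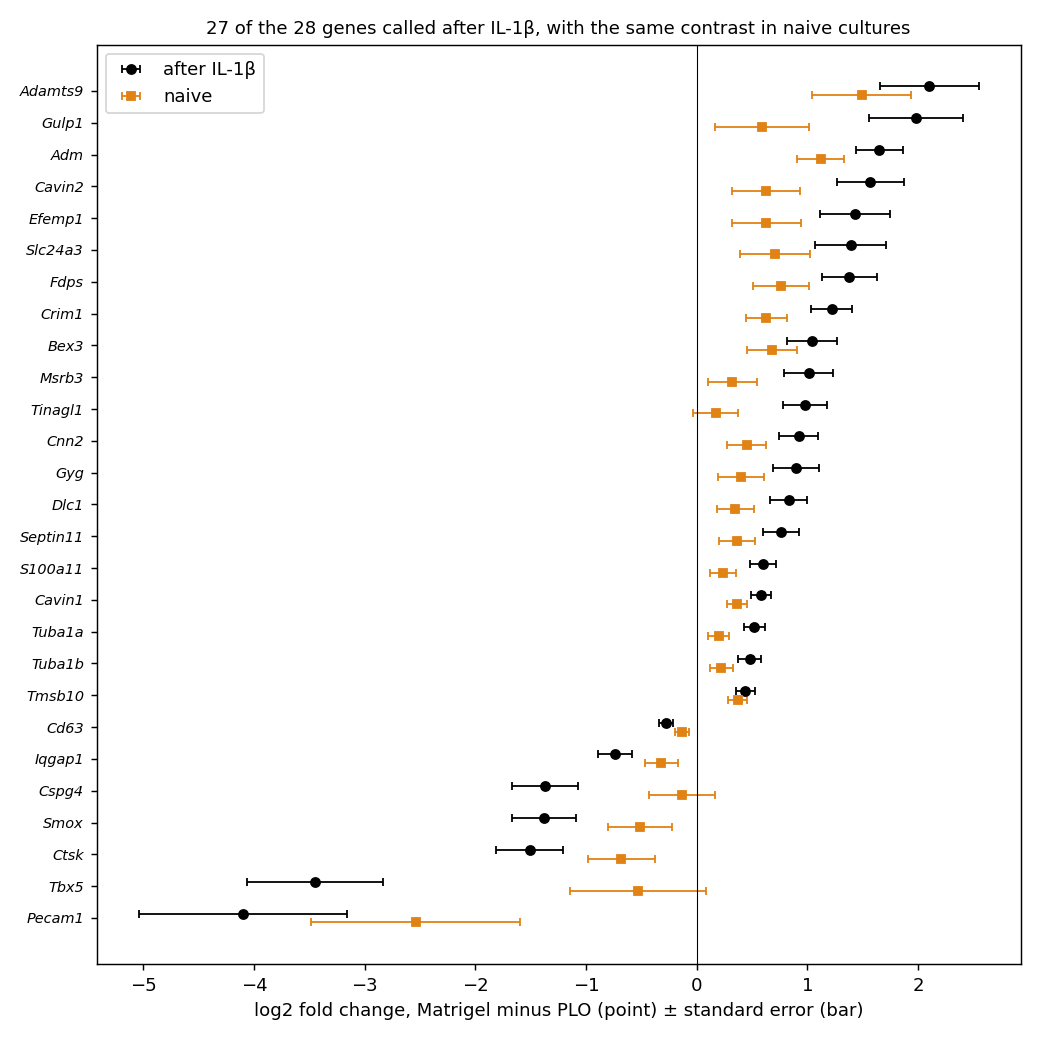
Log2 fold change of Matrigel minus poly-L-ornithine (horizontal axis, point ± SE) for 27 of the 28 called genes after IL-1β (black) and in naive cultures (orange). All 27 naive points lie on the same side of 0 as the IL-1β points and closer to 0, in genes selected for the size of the black points.

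Laminin, the other coating that binds integrins, was compared with the same poly-L-ornithine IL-1β libraries, so the values are set side by side and are not independent. Laminin against poly-L-ornithine called 11 genes (0.0532%), 9 of them among the 28. On laminin, Adm measured between 1229 and 3011 normalized counts (log2 fold change to poly-L-ornithine 1.40, adjusted p = 0.000733), Crim1 between 1065 and 1500.3 (1.17, adjusted p = 0.000433) and Fdps between 793.9 and 1956 (1.66, adjusted p = 0.000433). Cnn2 (0.96, adjusted p = 0.00544), Tuba1a (0.51, adjusted p = 0.00804) and Tuba1b (0.54, adjusted p = 0.00804) were also called, whereas Cavin1 (0.41, adjusted p = 0.0573), Cavin2 (1.33, adjusted p = 0.178), Cspg4 (-0.89, adjusted p = 0.402) and Pecam1 (-0.92, adjusted p = 0.893) were not. No gene was called between laminin and Matrigel after IL-1β by limma, with 821 (3.97%) at an unadjusted p under 0.05.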

How the data were processed

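Bulk 3′ RNA-seq (QuantSeq) was made from enteric glia cultures on 3 coatings, naive or with IL-1β, of which the 10 IL-1β libraries on Matrigel and poly-L-ornithine are compared here. Per the labels and methods, the authors trimmed reads with cutadapt, aligned them to mm10 with STAR in Partek Flow and scaled counts with DESeq2. The deposited values are signal in the form of normalized counts, that is estimated counts divided by a size factor per library, for 22180 genes in 35 libraries. They are not whole counts, so no count model was the main test.

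Genes with a highest value of 15 or less were dropped (20687 remained). Log2(normalized count + 2) of the 30 culture libraries was fitted as 6 groups with limma 3.58.1 (R 4.3.3; trend and robust), with Benjamini-Hochberg adjustment over all genes and a threshold of 0.05. A fold change on this scale understates the change of low genes. Intervals are 95% limma intervals and errors of fold changes are standard errors. The naive contrast, the interaction and the laminin contrasts came from the same fit, so spread was shared between groups. The labels give 5 biological replicates per group without naming animals, and p-values measure the spread between these samples.

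Alternatives were other pseudocounts, filters and normalizations, limma-voom, fits of the groups compared alone, blocks and leaving out each library. Scripts were tested on simulated data. Members and lists were chosen with earlier results of these data known. Named were the called genes with the largest change among those without overlap whose higher group averaged 50 or more (up to 15 per direction), up to 4 called members of each list and the genes that the study names for coatings. The other called genes, marker genes and further list members (such as Npc1, Ehd2, Plk1, Itgb3, Mmp13, Tgfb1, Calcrl and the Ramp genes) were chosen after their values were seen. Promoters are shown for called members of lists with at least 2 calls, all in 1 direction. Gene coordinates and promoters are those of RefSeq on GRCm38.p6. Tables were made with Python 3.11.15, pandas 2.3.3 and numpy 2.4.6 and plots with matplotlib 3.10.9. The results of some genes are not reported here.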

Additional observations from a re-analysis of the deposited data

Results flagged for a closer look

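In groups of 5 libraries, 11 of 184 tested had a library farther from the others than Dixon's critical value allows, and chance gives about 1 in 20. Among the called genes, Crim1 was high in poly-L-ornithine replicate 4 (773.5 normalized counts, next 540.6) and Pecam1 in Matrigel replicate 1 (73.72, next 17.04). High single libraries were also seen for Tubb5 in Matrigel replicate 2 (12252, next 9671), for Cxcl14 in poly-L-ornithine replicate 1 (111.1, next 19.14) and for Ramp1 in Matrigel replicate 5 (26.13, next 4.26) and poly-L-ornithine replicate 1 (84.62, next 20.65). Gfap was low in Matrigel replicate 2 (46.02, next 198.8). In 4 groups 1 library was above 0 and the others were listed at 0, at 0.9159 for Cux2 (Matrigel replicate 3), 1.065 for Cxcl14 (Matrigel replicate 4), 1.856 for Myh11 (poly-L-ornithine replicate 3) and 1.0 for Slc8a2 (Matrigel replicate 2).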

How the results depend on the processing

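Against 28 calls, 9 were made without trend and robust estimation (5 higher and 4 lower, 6 of them shared), 53 when the groups compared were fitted alone (33 higher and 20 lower, 21 shared), and 34 by limma-voom on rebuilt reads (16 higher and 18 lower, 14 shared). Fitted alone, 7 of the 28 lost their call. A block for the library serial number's rank, whose meaning the labels do not give, called 147 genes (93 higher and 54 lower), all 28 among them. It also called 26 of the 65 uncalled genes examined by name, such as Ifitm1 (adjusted p = 0.042), Ifitm3 (0.0106), Slco2a1 (0.0285) and Npc1 (0.014). Leaving out single libraries gave 5 to 45 calls, 4 to 36 of them higher and 1 to 13 lower. The other pseudocounts, filters and normalizations gave 24 to 28. Replicate numbers did not pair the samples (correlations of same-numbered deviations -0.12 to 0.0293). Libraries of the same serial rank correlated at 0.0243 to 0.204, and each Matrigel library correlated best with the poly-L-ornithine library of its rank, a hint from the data and not from the design. A replicate block called 24 genes, 23 of them shared.

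In naive cultures the single call became 0 with a mean of at least 50, with quantile normalization or without trend and robust, 5 by limma-voom, 8 with the serial rank block and 1 to 2 when an IL-1β library was left out. The interaction had 0 calls by limma under every alternative run. Differences near 0 turned sign: Dock8 at 0.16 under quantile normalization and Ramp3 at 0.23 with a pseudocount of 8. Without single libraries the log2 fold changes ran from -0.71 to 0.54 for Dock8, from -0.35 to 0.08 for Gbp5, from -0.48 to 0.09 for Gfap, from -0.20 to 0.08 for Haus8, from -1.38 to 0.22 for Ramp1, from -0.15 to 0.29 for Ramp2, from -0.66 to 1.13 for Ramp3, from -0.20 to 0.14 for S100b and from -0.29 to 0.03 for Zfyve9. The cause was not tested. In low genes such as Plk1, Pecam1 and Il6, single libraries were at or near 0 or spread widely, and the part of depth in this was not tested.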

Other observations

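Further gene groups held no call between the coatings after IL-1β. Over all genes, 3.39% were higher and 3.71% lower on Matrigel at an unadjusted p under 0.05, and the shares of some short lists lay above that. None of the 35 tested nuclear-encoded subunits of oxidative phosphorylation was called by limma or limma-voom or had an unadjusted p under 0.05, and their median log2 fold change was 0.02. None of 42 Wnt genes (2 higher and 3 lower at an unadjusted p under 0.05), 20 Notch genes (3 lower) or 54 axon guidance genes (4 higher) was called by limma or limma-voom. The same held for 27 AP-1 and immediate early factors (2 lower), 26 antioxidant enzymes and metallothioneins (4 lower) and 19 genes of MHC class I presentation (3 higher). The integrated stress response list (42 tested, 2 lower) and the CDK inhibitors and p53 targets (24 tested, 3 lower) also had no call by limma or limma-voom.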
